A study of Mus musculus with 2 samples.

Results

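The myeloid C-type lectin receptors were examined on Affymetrix mouse 430A 2.0 GeneChips of splenocytes, taken as every probe set to which the platform annotation gives a single gene symbol, that symbol being Clec4e, Clec4d, Clec4n, Clec7a, Clec4a2, Clec4a3, Clec5a, Clec12a, Cd209a or Clec2d. Of these 10 genes, 8 were measured, by 11 of the 20380 probe sets with a single symbol (8 of 12393 genes). Clec4a3 and Clec12a had no such probe set, and 1 further probe set was left out because it is paired with several symbols. The GPI-immunized mice, DBA/1 males at an age of 6 to 8 weeks, received 300 μg of recombinant human GPI-GST, a fusion of glucose-6-phosphate isomerase and glutathione S-transferase, which gives them arthritis. The control males of the same strain and age received 100 μg of GST. The proteins were given in complete Freund's adjuvant, an oil that carries killed mycobacteria, so the controls had met the adjuvant too. Spleens of 3 mice per group were harvested at day 10, and the sources used here do not say whether their RNA was pooled.

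Each group was read on 1 array, which leaves no spread to test against, and every ratio, printed with no p-value, describes these 2 arrays. A probe set is a group of short probes to 1 transcript whose brightness the authors deposited as a single signal, an intensity on a linear scale. The ratio is the GPI-immunized signal over the control signal. A gene was read from its brightest probe set by mean log2 signal and was counted as higher from a ratio of 2 upwards and as lower from 0.5 downwards, provided that its brighter signal reached 50.2, the 50th percentile of all signals. As a yardstick without replicates, the log2 ratios of probe sets of the same gene spread with an SD of 0.26 (2538 genes), a factor of 1.20, which holds no difference between mice. This is the spread of 1 probe set, and a difference between 2 of them spreads more widely, so it is a lenient yardstick for differences. The 15 control probe sets for the Bacillus genes Dap, Lys, Phe, Thr and Trpn, which have no target in mouse RNA, reached 14.1. The suspension carried the transcripts of spleen lymphocytes, with signals of 2961.3 and 2076.5 for Cd79a of the B cell receptor and 475.1 and 414.6 for Cd3d of the T cell receptor, control array first.

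C-type lectin receptors are membrane proteins of phagocytes and dendritic cells whose outer domain binds sugars, glycolipids or proteins of microbes and of damaged cells. The activating ones pass their signal through an immunoreceptor tyrosine-based motif, either their own or that of a partner chain, to the kinase Syk and the adaptor Card9, which leads to cytokine and chemokine genes. The inhibitory ones carry a motif of their own that recruits the phosphatases Ptpn6 and Ptpn11. Mincle, encoded by Clec4e, is known as the receptor for trehalose dimycolate, a glycolipid of the mycobacterial cell wall.

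Most of the members lie in gene clusters. In the RefSeq annotation (GRCm38.p6) 9 of the 10 genes are on chromosome 6, and Cd209a is on chromosome 8. Clec4n, Clec4d and Clec4e follow each other directly as protein-coding genes at the end of a lectin cluster that also holds Clec4a3 and Clec4a2, and Clec2d, Clec12a and Clec7a belong to the NK gene complex. Clec5a lies far from both on the same chromosome. The promoters of the 3 members that were at least 2-fold higher and of the member that was at least 2-fold lower are shown, because these are the genes on which the comparison turns. Each is the 250 bases before the RefSeq start, read 5′ to 3′ on the strand of the gene. Capitals mark matches to the letters searched on both strands, TTGNGCAA for C/EBP factors, GAGGAA for the core of PU.1 sites, TGANTCA for AP-1 and GGGNNTTCC for NF-κB.
Clec4e, chr6:123289872-123290121, minus strand: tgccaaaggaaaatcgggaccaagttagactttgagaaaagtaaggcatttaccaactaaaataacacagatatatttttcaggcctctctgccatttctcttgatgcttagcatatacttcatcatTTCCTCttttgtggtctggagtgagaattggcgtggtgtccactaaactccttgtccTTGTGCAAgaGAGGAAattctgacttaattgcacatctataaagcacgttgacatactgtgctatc
Clec4d, chr6:123261857-123262106, plus strand: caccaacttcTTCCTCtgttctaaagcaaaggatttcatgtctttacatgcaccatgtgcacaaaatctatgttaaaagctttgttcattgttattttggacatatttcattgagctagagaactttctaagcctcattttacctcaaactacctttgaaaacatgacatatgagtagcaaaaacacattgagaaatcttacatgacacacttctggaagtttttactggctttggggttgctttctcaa
Clec5a, chr6:40585806-40586055, minus strand: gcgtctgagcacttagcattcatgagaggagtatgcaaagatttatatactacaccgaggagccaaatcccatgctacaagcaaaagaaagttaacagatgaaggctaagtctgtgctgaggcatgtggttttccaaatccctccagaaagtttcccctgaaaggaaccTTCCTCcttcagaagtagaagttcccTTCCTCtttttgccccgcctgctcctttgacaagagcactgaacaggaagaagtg
Clec2d, chr6:129180365-129180614, plus strand: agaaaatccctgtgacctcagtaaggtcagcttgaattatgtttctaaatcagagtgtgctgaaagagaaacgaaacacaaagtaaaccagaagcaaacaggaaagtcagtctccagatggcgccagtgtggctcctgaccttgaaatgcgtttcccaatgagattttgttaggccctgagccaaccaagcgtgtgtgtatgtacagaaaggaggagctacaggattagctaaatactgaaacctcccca
In Clec4e the C/EBP letters lie from 66 to 59 bases before the start, next to PU.1 letters from 56 to 51 bases before it that they do not overlap. Clec4d holds 1 match to the PU.1 letters and Clec5a holds 2. The window of Clec2d holds no match to any of the 4 motifs. Over the 9 members with a promoter in the table, which lacks Clec4n, the PU.1 letters were found in 6, against 23.3% of all 32851 promoter windows of the same length. The C/EBP letters were found in 2, Clec4e and Clec12a, against 2.61% of all windows, the AP-1 letters in 1, Clec12a (6.75% of all), and the NF-κB letters in 1, Clec4a3 (4.98% of all). Clec7a and Clec4a3 have more than 1 listed start, and Clec4a3 holds the PU.1 letters at only 1 of them. A member was counted if any of its starts matched, whereas the shares of all are per window, so the units differ. These matches describe the letters and are not measured sites.

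The ratios of Clec4e, Clec4d, Clec5a, Clec7a, Clec4a2 and Clec4n lay above 1, and those of Cd209a and Clec2d below it. All 8 measured members reached the signal limit, 6 of them on both arrays, while Clec4e and Clec5a reached it only on the GPI-immunized array and could therefore be counted only as higher or between. Of the 8, Clec4e, Clec4d and Clec5a (3 genes) were at least 2-fold higher, Clec2d (1 gene) was at least 2-fold lower and 4 lay between. The share of all 6961 genes with sufficient signal was 2.23% in the higher direction and 0.445% in the lower direction. The median log2 ratio was 0.81 over the 8 members and 0.63 over the 6 with sufficient signal on both arrays, and 0.06 over all these genes. Among the single probe sets, 9 had a ratio above 1 and 2 a ratio below 1, and the probe sets of the same gene always lay on the same side. Of all 6961 genes with sufficient signal, 57.5% had a ratio above 1.

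**Figure D1:**
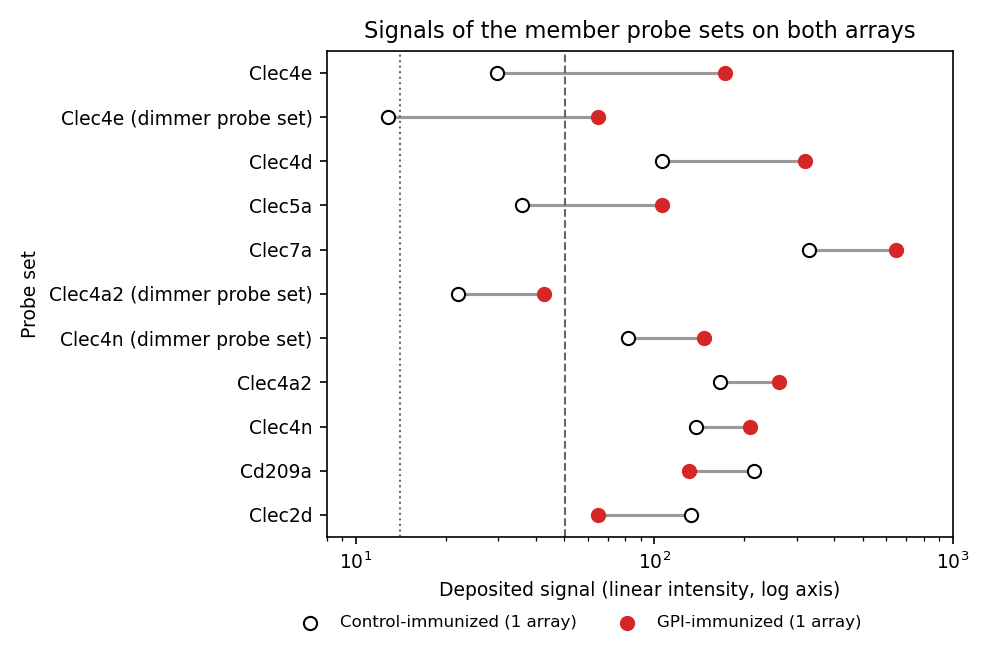
Deposited signal (horizontal log axis) of each of the 11 member probe sets (rows) on the control array (open circles) and the GPI-immunized array (filled circles), 1 array per group, with the signal limit of 50.2 as a dashed line and the highest Bacillus control signal of 14.1 as a dotted line. The filled circle lies to the right of the open circle in 9 rows and to the left for Cd209a and Clec2d, and the distance is greatest for Clec4e.

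Mincle (Clec4e) read 29.8 on the control array and 173.1 after GPI immunization. This ratio of 5.81 (log2 2.54) was the highest of the members and ranked 6 among the 6961 genes. Its dimmer probe set read 12.8 and 64.9, a ratio of 5.07. Since 12.8 lay under the highest Bacillus control signal of 14.1, that ratio is better given as at least 4.60. The pair differed by 0.20 on the log2 scale, which is under the SD between probe sets of the same gene. The control signal of the brighter probe set was above every Bacillus control but under the signal limit, and with all signals raised to the limit Clec4e was still 3.45-fold higher.

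Clec4d encodes MCL, the partner with which Mincle forms a complex on the cell surface, and its gene is the direct neighbour of Clec4e. It read 106.0 on the control array and 320.7 after GPI immunization, a ratio of 3.03 (log2 1.60). Both arrays measured it above the signal limit, and it ranked 35 among all genes. The ratio of Clec4e exceeded that of Clec4d by more than the SD between probe sets, but not with signals raised to the limit. Clec4n, the next gene in the cluster, encodes Dectin-2, a receptor for fungal and mycobacterial mannans. Its brighter probe set read 138.2 and 209.5, a ratio of 1.52, and its other probe set read 81.4 and 146.9, a ratio of 1.80. Both were higher on the GPI-immunized array without reaching 2-fold. Clec4e, Clec4d and Clec4n all signal through the Fc receptor γ chain, encoded by Fcer1g, which had signals of 547.4 and 877.3 and a ratio of 1.60.

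Clec5a encodes MDL-1, a myeloid receptor that signals through the adaptor DAP12 (Tyrobp). It read 35.9 on the control array and 105.8 after GPI immunization, a ratio of 2.95 (log2 1.56). With signals raised to the limit the ratio was 2.11. Clec5a and Clec4d differed in log2 ratio by less than the SD between probe sets, so their order is not settled. Tyrobp itself had signals of 1582.2 and 2253.2, a ratio of 1.42. Clec7a encodes Dectin-1, the β-glucan receptor, which carries its own activating motif. It was well measured on both arrays, with 331.0 and 646.0, and its ratio of 1.95 lay just under the threshold.

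Clec4a2 encodes DCIR, an inhibitory receptor of dendritic cells, monocytes and neutrophils. Its brighter probe set read 165.8 on the control array and 262.6 after GPI immunization, which is a ratio of 1.58. The dimmer probe set read 21.9 and 42.6, a ratio of 1.95, with both signals under the limit. The log2 ratios of this pair differed by 0.30, more than the SD between probe sets. Clec4a2 and Clec4n could not be ordered by their ratios. Clec4b1, which lies beside Clec4a2 in the cluster, had signals of 59.4 and 68.1 and a ratio of 1.15. From Clec4b1 through Clec4a2 and Clec4n to Clec4d and Clec4e, the measured genes of the cluster therefore had ratios of 1.15, 1.58, 1.52, 3.03 and 5.81 in chromosomal order, and 4 of its 9 genes were not measured by a single-symbol probe set.

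**Figure D2:**
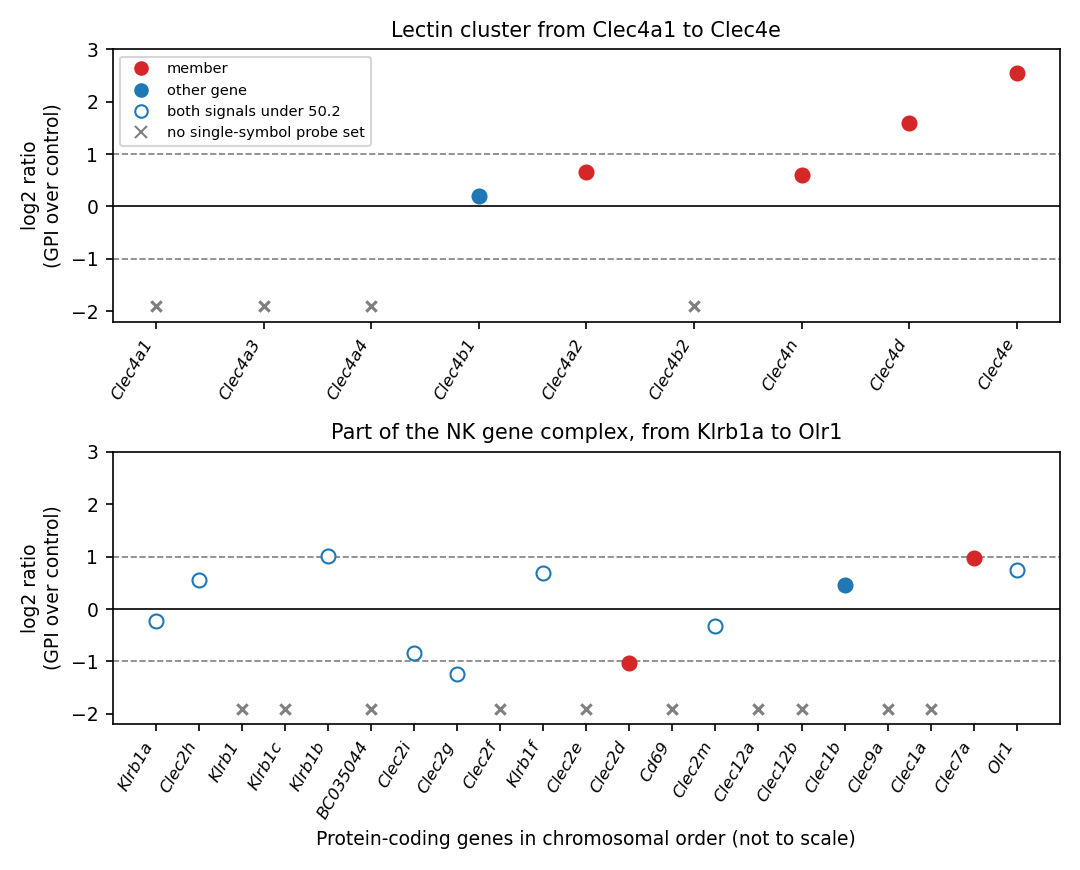
Log2 of the GPI-immunized over the control signal (vertical axis, dashed lines at 2-fold) for protein-coding genes in chromosomal order (horizontal axis, not to scale) in the lectin cluster (top) and in part of the NK gene complex (bottom), 1 array per group. Members are red, other genes blue, open circles mark genes with both signals under 50.2, and crosses mark genes with no single-symbol probe set, drawn at an arbitrary height. Clec4d and Clec4e at the end of the upper cluster lie above the 2-fold line, while in the lower panel Clec7a lies just under it and Clec2d just below the lower one.

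Cd209a encodes the mouse DC-SIGN, a mannose-binding lectin of dendritic cells and monocytes. Its signals were 215.5 (control) and 130.7 (GPI-immunized), a ratio of 0.606 (log2 -0.72). It was lower by more than the SD between probe sets without reaching 2-fold, and 1.75% of all genes had a ratio as low. Its relative Cd209d had signals of 54.3 and 26.0, a ratio of 0.479, and reached the signal limit only on the control array. Cd209b, Cd209c, Cd209e, Cd209f and Cd209g had signals under the limit on both arrays.

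Clec2d (Clr-b) differs from the other members in its role, as it is the ligand of the NK cell receptor Klrb1b and is found on most blood cells. Its signals were 132.7 (control) and 64.8 (GPI-immunized), a ratio of 0.488 (log2 -1.03). Only 21 of the 6961 genes, Clec2d included, had a ratio as low. Klrb1b read 4.2 and 8.5, each below the highest Bacillus control signal of 14.1, and therefore no ratio is printed. The nearby Clec2i had signals of 49.7 and 27.6, both under the limit. Of 13 measured NK complex receptors 4 had sufficient signal. Of these 0 were at least 2-fold lower, and all 4 had ratios below 1, from 0.531 (Klrc1) and 0.565 (Klrd1) to 0.684 (Klrg1) and 0.766 (Klrk1). Klrc1 (57.3 and 30.4) and Klrk1 (56.9 and 43.6) reached the signal limit only on the control array, so they could only lie below 1. Of all genes with sufficient signal, 57.5% had a ratio above 1.

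The partner chains of these receptors had ratios above 1, while the other genes of the signalling chain lay on both sides of it. Of 24 adaptors, kinases and phosphatases in the list, 16 had sufficient signal, of which 0 passed 2-fold in either direction. Their median log2 ratio was 0.06. The highest were Fcer1g and the guanine exchange factor Vav3 (69.0 and 108.0, a ratio of 1.57). Syk, the kinase that all activating receptors of this family use, had signals of 932.3 and 775.5, a ratio of 0.832, and the kinase Btk, which B cells share, had the lowest ratio of 0.815. Both are signals of the whole splenocyte suspension, and the part that B cells had in them was not tested. Card9 had no single-symbol probe set. The phosphatase Ptpn6 read 1513.5 and 1549.9, a ratio of 1.02.

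Of 22 genes known to be induced through these receptors, 9 had sufficient signal. Of these, 2 passed 2-fold upwards and 0 downwards, and the median log2 ratio was 0.17. The neutrophil-attracting chemokine Cxcl2 read 53.0 and 228.0, a ratio of 4.30, and Il1b read 708.3 and 1920.2, a ratio of 2.71. The lowest were Il12a, a subunit of interleukin-12 (136.3 and 78.6, a ratio of 0.577), and the transcription factor Egr2 (51.6 and 42.2, a ratio of 0.818). Egr2 reached the signal limit only on the control array and could therefore only lie below 1. The cytokine genes Il6, Il12b, Il23a, Csf2 and Csf3 of this list had signals under the limit on both arrays.

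Genes listed as other C-type lectin receptors, or named like them, had ratios on both sides of 1. Of 49 in the list, 11 had sufficient signal. None of the 11 (0) was 2-fold higher, 2 were 2-fold lower and the median log2 ratio was 0.15. The highest were Cd302 (111.0 and 163.5, a ratio of 1.47) and the platelet receptor Clec1b (53.4 and 73.3, a ratio of 1.37). The macrophage mannose receptor Mrc1 read 366.3 and 405.8, a ratio of 1.11, and the macrophage galactose lectin Clec10a read 64.4 and 47.4, a ratio of 0.736. Clec10a reached the signal limit only on the control array and could therefore only lie below 1. Besides Cd209d the lower gene was Fcer2a, the low-affinity IgE receptor of B cells, which read 1437.2 and 705.5, a ratio of 0.491. Neither this difference from the members nor any other difference between lists was tested, since each rests on 1 array per group.

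Markers of cell types differed beside the members, and in a bulk sample more cells of a type and more RNA per cell cannot be told apart. All 20 measured neutrophil markers were above a ratio of 1, against 57.5% of all genes with sufficient signal. Of these markers 10 were at least 2-fold higher, against 2.23% of all genes with sufficient signal, and the median log2 ratio of the list was 1.03. Cxcr2 (23.5 and 76.6) and Padi4 (33.0 and 85.9), both among the 10, reached the limit only on the GPI-immunized array. They could therefore only lie above 1. The signals of the 20 markers summed to 37355.3 (control) and 55703.3 (GPI-immunized). The ratio of Clec4e was above that of each of these markers, the highest being 3.28 for the collagenase Mmp8 (254.2 and 834.7). With signals raised to the limit, which leaves Mmp8 as it is, the 3.45 of Clec4e differed from it by less than the SD between probe sets. Clec4d and Clec5a lay within their range. Of 14 monocyte and macrophage markers with sufficient signal, 11 were above 1 and 4 at least 2-fold higher. Over all genes with sufficient signal these shares were 57.5% and 2.23%. The sums over the 16 measured were 16294.3 and 20009.3. The 4 were Cd14 (79.2 and 390.4, a ratio of 4.93), the integrin chain Itgam (2.41) and the Fc receptors Fcgr4 (2.41) and Fcgr3 (2.28). Itgam is also counted in the neutrophil list. Fcgr1 (40.4 and 74.6), among the 11, reached the limit only on the GPI-immunized array. The macrophage marker Adgre1, in contrast, read 207.6 and 187.0, a ratio of 0.901, and Csf1r 1.15. Among the 10 red pulp and marginal zone macrophage markers with sufficient signal, all were above 1, and only Cd5l (119.5 and 338.8, a ratio of 2.84) reached 2-fold. Some lay barely above 1, such as Cd163 (1.002) and Vcam1 (1.02). These are smaller than the quotient of the array medians, 1.06, so their side of 1 depends on the scaling. The sums over the 13 measured were 4726.6 and 5695.5.

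The lymphoid and dendritic cell markers differed mostly in the other direction. Of 15 dendritic cell markers with sufficient signal 13 were below 1, while 57.5% of all such genes were above 1. The list had a median log2 ratio of -0.26 and sums over the 19 measured of 24336.4 and 21694.1. Most of the control sum came from H2-Aa (7044.6), Cd74 (6797.2) and H2-Ab1 (5754.8), and Cd8a is also in the T cell list. The part that lymphocytes had in these signals was not tested. The ratios of the 15 ran from 0.549 (Ccr9) and 0.587 (Bst2) to 1.31 (Sirpa) and 1.46 (Batf3), and the 0.606 of Cd209a lay within this range. Ccr9 (82.1 and 45.1) reached the limit only on the control array and could only lie below 1. The integrin Itgax (CD11c) had a ratio of 0.822 and Flt3 a ratio of 0.989. The median log2 ratio was -0.48 for 11 T cell markers and -0.47 for 10 B cell markers. The T cell markers ran from -0.97 (Cd3e) to 0.04 (Zap70), and the B cell markers from -1.03 (Fcer2a) to -0.12 (Ms4a1). Clec2d, at -1.03, was close to the lowest of these markers. The summed signals, control array first, were 2328.4 and 1653.3 over the 12 measured T cell markers and 17178.3 and 12731.3 over the 11 measured B cell markers. None of the measured markers of these lists was at 0 on either array. The part that cell composition had in the ratios of the members was not tested.

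**Figure D3:**
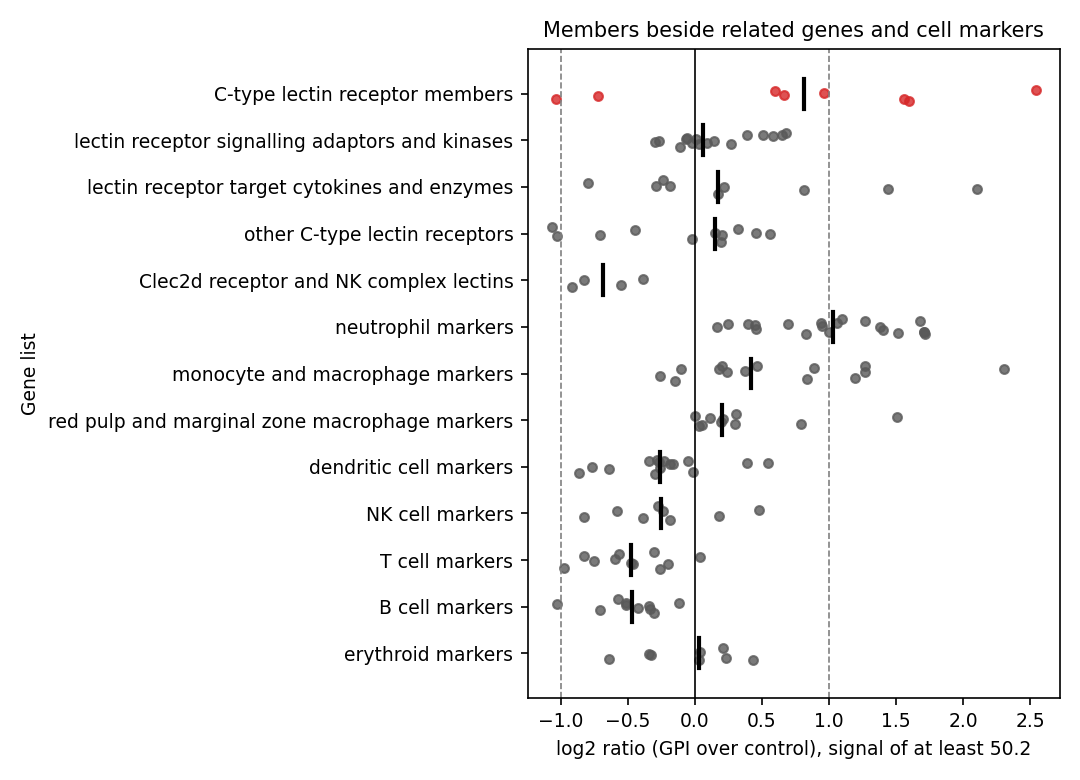
Log2 of the GPI-immunized over the control signal (horizontal axis, dashed lines at 2-fold) for the genes of each list (rows) with a signal of at least 50.2, 1 point per gene and 1 array per group, with the median as a vertical bar and points spread vertically only for legibility. The members span from -1.03 to 2.54 with a median of 0.81 (0.63 without Clec4e and Clec5a, which had sufficient signal on the GPI-immunized array only), and the medians are 1.03 for the neutrophil markers, 0.06 for the signalling chain and 0.15 for the other C-type lectin receptors.

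The genes nearest to Clec4e in both signals were Il1f9, an interleukin-1 family cytokine, Arg2, the mitochondrial arginase, and Il1r2, the interleukin-1 decoy receptor. Il1f9 read 31.8 and 193.2, a ratio of 6.08, at a distance of 0.18 on the plane of the 2 log2 signals. Arg2 read 36.2 and 155.1, a ratio of 4.28, at a distance of 0.32, and Il1r2 read 28.6 and 109.0, a ratio of 3.81, at a distance of 0.67. These genes were picked for their nearness, so their like ratios follow from the choice. Like Clec4e, they reached the signal limit only on the GPI-immunized array. The nearness rests on 2 arrays.

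No member changed direction under the other scalings, floors and choices of probe sets, except that Clec4d, Clec4n and Cd209a have no value when probe sets with a suffix for cross-hybridization or several transcripts are left out. Some of these settings could not alter a ratio, such as a floor below both signals. With each array divided by its median, with quantile normalization or with loess centring, Clec4e had ratios from 5.39 to 5.46, Clec4d from 2.84 to 2.87, Clec5a from 2.73 to 2.77 and Clec2d from 0.458 to 0.460. The control probe sets named BioB, BioC, BioDn and CreX, whose transcripts are usually added to the hybridization in fixed amounts, were dimmer on the GPI-immunized array, with ratios from 0.774 to 0.939 in all 9. Dividing by their mean, a scaling chosen after the data were examined, moved Clec7a to 2.24, above the threshold, and Clec2d to 0.560, which no longer reached it. The sources used here do not say whether these transcripts were added equally.

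**Figure D4:**
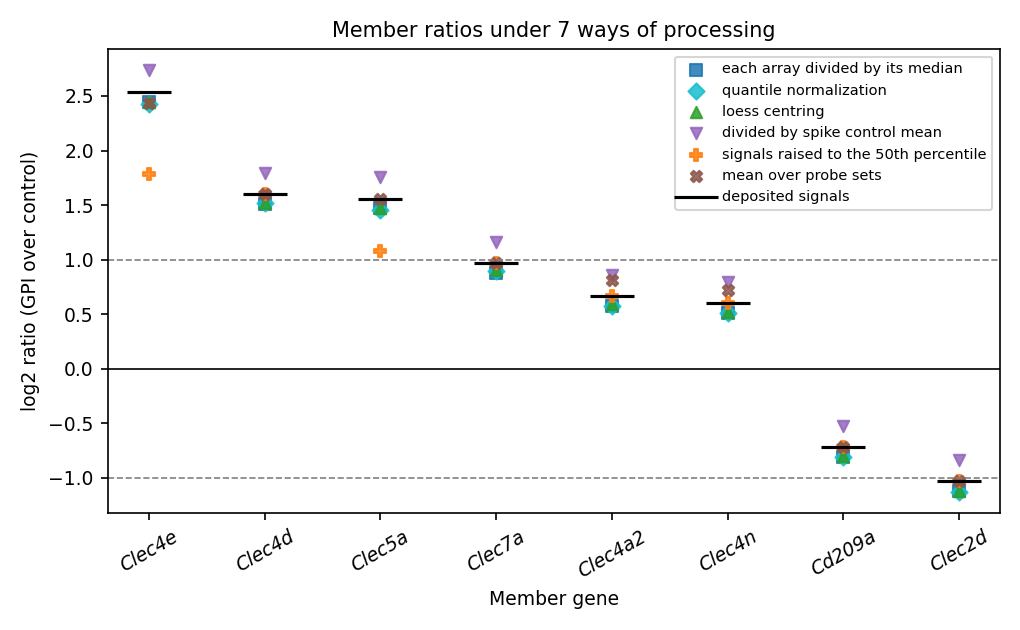
Log2 of the GPI-immunized over the control signal (vertical axis, dashed lines at 2-fold) of the 8 measured members (horizontal axis) with the deposited signals (black bars) and under 6 alternatives (symbols), 1 array per group. No symbol crosses 0, Clec4e and Clec5a drop most when signals are raised to the 50th percentile, and scaling to the added controls takes Clec7a above and Clec2d inside the 2-fold lines.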

How the data were processed

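Splenocyte RNA was hybridized to 1 Affymetrix mouse 430A 2.0 array per group. The authors deposited intensities on a linear scale, 1 signal per probe set, made with what the methods call gene expression software. The sources used here do not give the summarization, scaling or detection calls. The labels name a whole-transcript kit, the paper biotinylated cRNA. The number of arrays limits the precision. Column medians were 48.65 (control) and 51.8.

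Of 22626 probe sets other than controls, 20380 have 1 gene symbol, 691 several and 1555 are unnamed in the platform annotation, and 20351 were matched by gene ID to RefSeq (GRCm38.p6). Ratios were formed without scaling, and 3 signals of 0 were set to 0.1. The members and gene lists were chosen with earlier results of these data known. Named genes were all members, the adaptors Fcer1g, Tyrobp, Syk and Card9, the genes past 2-fold and the 2 highest and 2 lowest of each list, and the 3 nearest to Clec4e. Not all are printed, and others were chosen after their values were seen. The erythroid and NK cell marker lists had median log2 ratios of 0.03 and -0.25. The steps were tested on simulated data. Alternatives were other scalings, floors, filters, probe set choices and a 3-fold threshold. Python 3.11.15 was used with pandas 2.3.3, numpy 2.4.6, statsmodels 0.14.6 (loess), matplotlib 3.10.9 and scipy 1.17.1.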

Additional observations from a re-analysis of the deposited data

How the results depend on the processing

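Of 69 ratios of single members under other settings, 67 stayed within the SD between probe sets and 0 changed direction. Clec4e (3.45) and Clec5a (2.11) moved with signals raised to the 50th percentile. Much of this was fixed in advance. A floor below both signals, or a probe set choice for a gene with 1 probe set, cannot alter a ratio. Scaling to the medians or to the added controls shifts every member by the same constant, which is smaller than this SD. The 67 are therefore no measure of robustness. The count of members at least 2-fold higher (3) was 1 when the signal limit was the 75th percentile, which keeps 3 of the 8 members, 2 at 3-fold, 2 without suffixed probe sets and 4 with scaling to the added controls. The count at least 2-fold lower (1) was 0 with the 75th percentile limit, 0 at 3-fold and 0 with scaling to the added controls, an alternative chosen after the data were examined. Omitting the probe sets with a suffix that marks cross-hybridization or several transcripts removed Clec4d, Clec4n and Cd209a. Over all genes, 83.3% of those past 2-fold were higher, against 70.3% after division by the median and 96.3% with scaling to the added controls, which moved the median log2 ratio of all genes from 0.06 to 0.26, and that of the members from 0.81 to 1.01. Without a filter 10.2% of genes were at least 2-fold higher and 8.89% lower. No paired analysis was possible because each group has 1 array. No replicate could be left out for the same reason.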
